A study of Mus musculus with 11 samples.

Results

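The genes described here make, bind and remove retinoic acid or respond to it. They are 9 mouse genes, matched by their Entrez identifiers in the deposited table of 27179 genes: Stra6, Aldh1a1, Aldh1a2, Aldh1a3, Crabp2, Rara, Rarb, Rarg and Cyp26b1. Bulk RNA-seq measured them in sorted mammary cells of C57BL/6 females aged 5 weeks that carry E-cadherin-GFP, a fluorescent form of the epithelial adhesion protein E-cadherin, and every group shared this strain, age and reporter. Terminal end buds (TEBs), which lead the growth of the ductal tree at puberty, were microdissected apart from the ducts behind them. From each structure, cells lacking the blood and endothelial markers Ter119, CD31 and CD45 and positive for CD24 and CD29 were sorted as luminal (bright GFP) or basal (dim GFP). Basal duct, basal TEB and luminal TEB each had 3 libraries and luminal duct had 2 (replicates 1 and 3), and each library pooled at least 2 mice.

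Retinol, the alcohol form of vitamin A, enters cells through the receptor STRA6 and is oxidised first to retinal and then, by the retinal dehydrogenases of the ALDH1A family, to retinoic acid. Retinoic acid reaches the nucleus with the help of CRABP2 and binds the receptors RARα, RARβ and RARγ, which sit on DNA as dimers with RXR partners and switch genes on when the ligand binds. CYP26 enzymes break retinoic acid down, so that its level in a tissue depends on both making and removing it. In the mammary gland ALDH activity has been used to sort progenitor cells, and Aldh1a3 is known as a gene of luminal progenitors.

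Totals ran from 27989137 to 49221436 counts per library. Levels are counts-per-million (CPM), with libraries brought to a common size by the TMM method, or CPM per kb of counted gene length where genes are set side by side. Differences are log2 fold changes with their standard errors (SE) from edgeR's quasi-likelihood test, and a gene counts as changed where its Benjamini-Hochberg adjusted p over 17370 genes (FDR) was below 0.05. Of the 9 genes, 8 passed the filter on low counts and were tested, and Aldh1a2 did not pass. Basal markers (8 of 8 matched) summed to between 5671 and 20419 CPM in basal libraries and to at most 270.5 CPM in luminal ones, and luminal keratins with Epcam and Gata3 (5 of 5 matched) to between 11187 and 16691 CPM in luminal libraries and at most 818 CPM in basal ones, so each library carried the markers of its label. Fewer cells of a type and less RNA of a gene in each cell cannot be told apart in such bulk samples. Mitochondrial genes took 37.5% of the counts in basal TEB replicate 1 and 28.5% in luminal duct replicate 3, against 4.34% to 17.8% in the others, and several results are also given without 1 or both of these libraries.

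Between the cell types, retinal dehydrogenase genes were called in both structures and receptor genes in TEBs, and none of the genes was called between the structures. Aldh1a1 was higher in basal cells and Aldh1a3 in luminal cells, in ducts and in TEBs alike. Rara and Rarg were lower in basal than in luminal cells of TEBs. In ducts Rara also lay lower in basal cells without overlap, but it was not called (log2 fold change -1.45, FDR = 0.273). Of the 8 genes tested, 2 were called between basal and luminal duct, 1 higher and 1 lower in basal cells, where 22.3% of all genes tested were called (12.6% higher and 9.71% lower). Between basal and luminal TEB 4 were called, 1 higher and 3 lower, where 25.1% of all genes were called (13.2% higher and 11.8% lower). In ducts 2 of the genes lay higher and 2 lower in basal cells without overlap, as 24.8% and 21.2% of all genes did, and in TEBs 4 lay higher and 3 lower, against 22.6% and 27.2% of all genes. The median log2 fold change of the 8 genes was 0.59 in ducts and 1.04 in TEBs, against 0.08 and 0.04 over all genes tested.

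Between TEBs and ducts, none of the 8 genes was called by edgeR's quasi-likelihood test in basal cells (0 of 8, with 2 at an unadjusted p below 0.05) or in luminal cells (0 of 8, with 1). The share of all genes called was 1.32% in basal and 1.41% in luminal cells. At an unadjusted p below 0.05 in the same test lay 2511 of 17370 genes in basal and 2882 in luminal cells. In basal cells DESeq2 and limma voom also called 0 of the 8, and in luminal cells DESeq2 called 0 and limma voom called 1, Aldh1a3. Of all genes, DESeq2 called 874 in basal and 1277 in luminal cells, and limma voom 601 and 351. Several genes nevertheless lay outside the range of the other structure. Aldh1a1 and Stra6 were higher, and Rara, Rarg and Cyp26b1 lower, in every basal TEB library than in every basal duct library, where 8.88% of all genes lay higher and 11.9% lower without overlap. In luminal cells Aldh1a3 and Cyp26b1 lay lower in TEBs without overlap, as did 17.4% of all genes, and 26.2% lay higher. Stra6 had counts in each luminal TEB library and none in luminal duct, but 2 of the TEB values were below what a count of 0 allows, so that separation was not resolved. The median log2 fold change of the 8 genes was 0.19 in basal and -0.20 in luminal cells, against -0.03 and 0.04 over all genes.

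**Figure D1:**
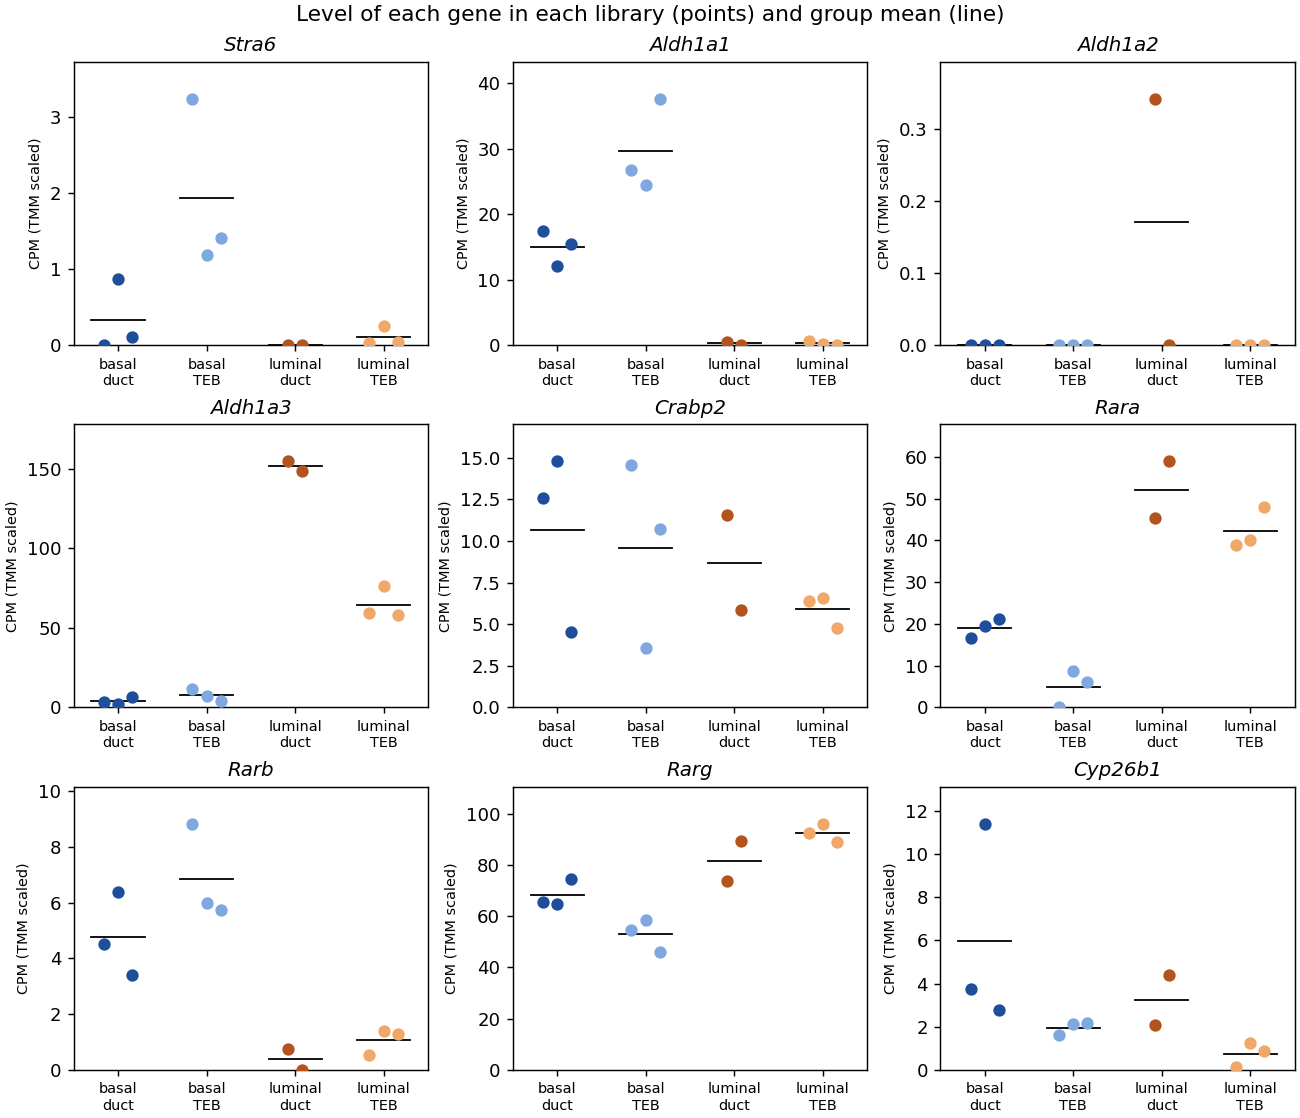
The level of each of the 9 genes in each of the 11 libraries, with the group on the x axis and CPM after TMM scaling on the y axis, which starts at 0 and has its own range in each panel. Points are libraries and horizontal lines are group means. Aldh1a1 and Rarb lie higher in both basal groups, Aldh1a3 and Rara in both luminal groups, and Rara is at 0 in basal TEB replicate 1.

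Stra6, the membrane receptor that takes up retinol from its carrier in blood (chr9:58063793-58154004 in the mm10 build, plus strand, protein coding), was found at very low levels and mostly in basal cells of TEBs. Its level was 3.23, 1.18 and 1.40 CPM in basal TEB replicates 1 to 3, and 0, 0.868 and 0.103 CPM in basal duct. Both luminal duct libraries had no count of it, which allows up to 0.0683 and 0.123 CPM at 3 counts per library, and luminal TEB held 0.0224, 0.248 and 0.0385 CPM. All basal TEB libraries thus exceeded every other library, and the largest value outside them was that of basal duct replicate 2. The luminal TEB values rested on 1, 13 and 2 counts. Neither the difference of basal TEB from basal duct (log2 fold change 2.57, SE 1.91, FDR = 0.586) nor that from luminal TEB (4.19, SE 2.06, FDR = 0.170) passed the test, although the second passed in limma voom (FDR = 0.0306) and in a fit of those groups alone (FDR = 0.0398). The highest value was that of basal TEB replicate 1, rich in mitochondrial counts, and without that library the differences were 2.00 (FDR = 0.791) and 3.60 (FDR = 0.278). The span of Stra6 overlaps that of Ccdc33 on the other strand, with which it shares 0 annotated exon bases.

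Aldh1a1 (chr19:20492583-20643463, plus strand, protein coding) encodes a retinal dehydrogenase and was counted almost entirely in basal cells. It measured 17.4, 12.1 and 15.4 CPM in the basal duct libraries and 26.7, 24.4 and 37.6 CPM in basal TEB. The luminal duct libraries had 0.501 and 0 CPM, and the luminal TEB libraries 0.583, 0.191 and 0 CPM. Every basal library was above every luminal library, and 1 library of each luminal group had no count. Basal exceeded luminal cells by 5.76 (SE 1.39, FDR = 0.0105) in ducts and by 6.85 (SE 1.21, FDR = 0.00121) in TEBs on the log2 scale. All 22 counts of luminal duct came from replicate 1. Without it the fitted value, 12.23, was set against a library at 0 and gives no fold. Without luminal duct replicate 3 it was 4.89 (FDR = 0.0373). Within basal cells the mean was 29.6 ± 7.04 CPM in TEBs (SD, n = 3) and 14.9 ± 2.70 CPM in ducts (SD, n = 3), which did not overlap but did not pass the test (log2 fold change 0.98, SE 0.93, FDR = 0.682, with an interval at 95% from -1.04 to 3.01). The span of Aldh1a1 overlaps 2 non-coding genes, C730002L08Rik on the other strand, with 0 shared annotated exon bases, and E030003E18Rik, whose exons were not compared.

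Markers of other cells moved with the difference in Aldh1a1 between basal and luminal cells. Fibroblast markers (6 of 6 matched) summed to between 225.6 and 840 CPM in basal libraries and to between 6.03 and 249.7 CPM in luminal ones, with Lum at 0 in 2 basal libraries. Luminal duct replicate 3, with the 249.7 CPM, had no count of Aldh1a1. Within basal cells the order was the opposite, with 430.2 to 840 CPM of fibroblast markers in ducts and 225.6 to 405.9 CPM in TEBs, where Aldh1a1 was higher. In luminal libraries Aldh1a1 stood at 0% to 3.35% of its basal mean in the same structure, and the summed basal markers at 0.226% to 1.45%. The part of fibroblasts or other cells in the levels of Aldh1a1 was not tested.

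Aldh1a7, a rodent paralogue of Aldh1a1 on the same chromosome, was also higher in basal cells. It measured 12.8, 3.05 and 18.5 CPM in basal duct, 44.5, 26.3 and 31.3 CPM in basal TEB, 1.05 and 0.0411 CPM in luminal duct, and 0.762, 0.152 and 0.385 CPM in luminal TEB. The basal and luminal ranges were apart in both structures. Basal cells exceeded luminal cells by 4.32 (SE 1.14, FDR = 0.0168) in ducts and by 6.30 (SE 1.04, FDR = 0.000761) in TEBs. The coding sequences of the pair are alike, and how read pairs that fit both were counted is not given in the sources used here, so the split between the 2 genes is uncertain. In the GENCODE transcripts (release M21) they were identical at 91.6% of 1503 bases, and 37 of 1424 stretches of 80 bases of Aldh1a1, the read length, were found unchanged in Aldh1a7. The following 60 bases of exon 4 are shown because a read from here differs between the genes. They are coding bases 317 to 376 of each, at chr19:20619973-20620032 (plus strand) for Aldh1a1 and chr19:20719252-20719311 (minus strand) for Aldh1a7 in GRCm38, with the 16 positions that differ in capitals.
Aldh1a1: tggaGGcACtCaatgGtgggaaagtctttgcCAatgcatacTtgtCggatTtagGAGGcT
Aldh1a7: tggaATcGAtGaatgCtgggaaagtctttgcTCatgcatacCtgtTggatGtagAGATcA

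The members themselves were further apart. Coding identity was 70.0% between Aldh1a1 and Aldh1a2, 68.6% between Aldh1a1 and Aldh1a3 and 69.6% between Aldh1a2 and Aldh1a3. The receptors were identical at 74.0% (Rara and Rarb), 76.3% (Rara and Rarg) and 72.5% (Rarb and Rarg) of aligned coding bases, and 0 stretches of 80 bases were shared in these 6 pairs.

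Aldh1a2 (chr9:71215789-71296243, plus strand, protein coding), the retinal dehydrogenase that makes most retinoic acid in the early embryo, was nearly absent from the counts. It had 15 counts (0.341 CPM) in luminal duct replicate 1 and 0 in each of the other 10 libraries. A count of 0 allows between 0.0572 and 0.173 CPM per library at 3 counts, so a level below this was not detectable at this depth.

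Aldh1a3 (chr7:66390892-66427477, minus strand, protein coding) was the retinal dehydrogenase of luminal cells. It stood at 155 and 149 CPM in luminal duct and at 59.0, 76.3 and 58.3 CPM in luminal TEB. In basal duct it was 3.15, 2.37 and 6.49 CPM, and in basal TEB 11.5, 7.33 and 3.70 CPM. All luminal libraries were above all basal libraries, and both luminal duct libraries were above all luminal TEB libraries, while the basal groups overlapped. Basal cells were lower than luminal cells by a log2 fold change of -5.24 (SE 0.49, FDR = 1.6e-05) in ducts and -3.11 (SE 0.43, FDR = 0.000212) in TEBs, and both calls held in 19 of 19 alternative settings.

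In luminal cells Aldh1a3 had a mean of 64.5 ± 10.2 CPM in TEBs (SD, n = 3) and 151.6 ± 4.18 CPM in ducts (SD, n = 2), a log2 fold change of -1.23 (SE 0.44, FDR = 0.184) that did not pass edgeR's quasi-likelihood test. It passed in limma voom (FDR = 0.00570) and in a fit of the luminal groups alone (FDR = 0.0282), and without luminal duct replicate 3 it was -1.26 (FDR = 0.406). In basal cells the change from ducts to TEBs was 0.90 (SE 0.41, FDR = 0.349). The test of whether the TEB-duct difference was the same in both cell types gave 2.13 (SE 0.60, FDR = 0.160), and DESeq2 alone called it (FDR = 0.0260). Of the 8 genes, 0 were called in this test by edgeR, with 2 at an unadjusted p below 0.05 (Aldh1a3 and Rarg), 1 by DESeq2 and 0 by limma voom. Over all 17370 genes, edgeR called 0.443% and gave 2559 an unadjusted p below 0.05, while DESeq2 called 712 and limma voom 95.

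Luminal progenitor markers (Elf5, Kit, Cd14, Prom1 and Tspan8) moved with Aldh1a3. They summed to 590.5 and 714 CPM in luminal duct and to between 317.4 and 401.5 CPM in luminal TEB, whereas mature luminal markers (5 of 5 matched) ranged from 3340 to 6078 CPM and from 3184 to 4524 CPM. In basal TEB replicates 1 to 3, Aldh1a3 stood at 17.9%, 11.4% and 5.73% of its luminal TEB mean, the summed progenitor markers at 15.2%, 25.3% and 22.9%, and the general luminal markers at 3.93% to 4.16%. The share of Aldh1a3 thus did not follow the order of the progenitor markers over the basal TEB libraries, in which Elf5 was at 0 in replicate 3, Tspan8 in replicate 1 and Cd14 in both. The part of the mix of luminal cells in these differences was not tested.

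The summed level of mural cell markers (4 of 4 matched) also moved with the genes that were higher in luminal cells, Aldh1a3, Rara and Rarg. They summed to between 28.6 and 54.6 CPM in basal duct, 4.56 and 24.2 CPM in basal TEB, 179.9 and 180.8 CPM in luminal duct and 255.4 and 273.7 CPM in luminal TEB, without overlap between cell types. In luminal duct replicate 1 Rgs5, Pdgfrb and Cspg4 were at 0, so its 180.8 CPM were all Notch3. A sum that rests on Notch3 alone does not identify a cell type. Cspg4 was also at 0 in luminal duct replicate 3 and luminal TEB replicate 2. Among basal libraries Rgs5 was at 0 in basal duct replicate 1 and basal TEB replicate 1, and Pdgfrb in the latter. The part of mural cells in these differences was not tested.

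**Figure D2:**
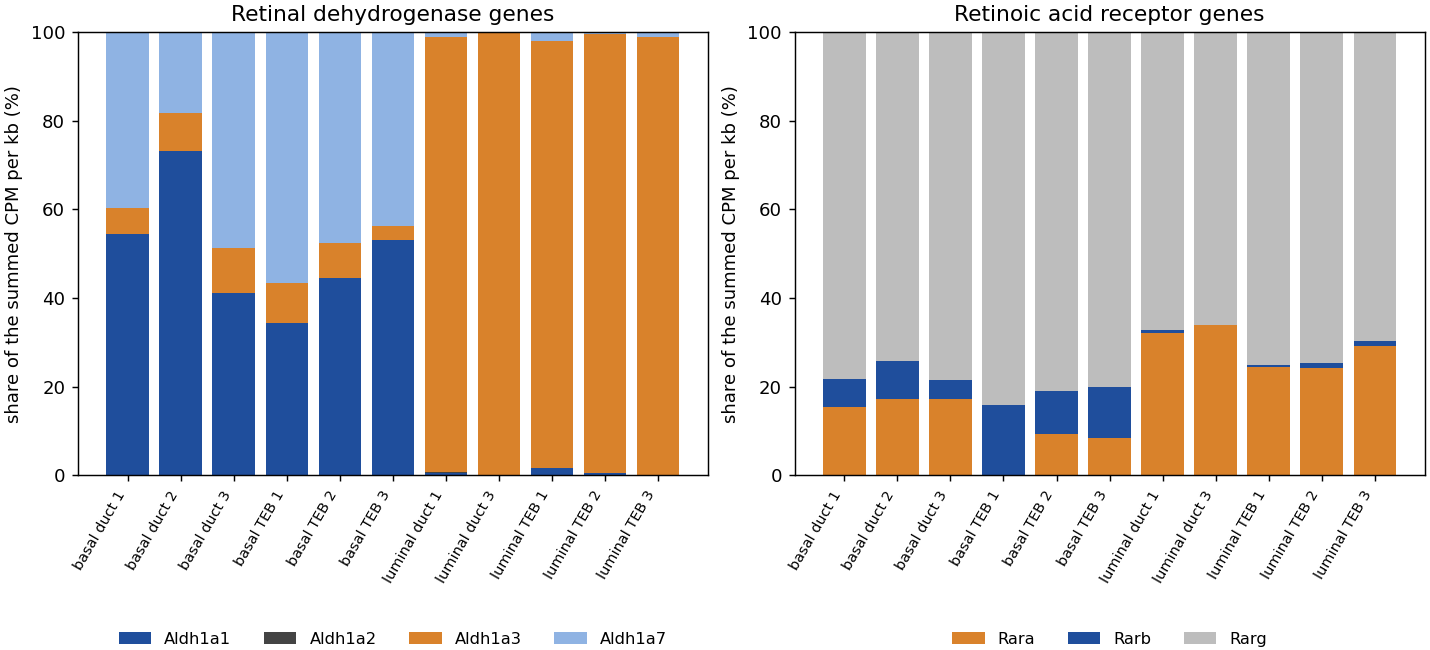
The share of each gene in the summed CPM per kb of the ALDH1A genes (left, with Aldh1a7) and of the retinoic acid receptors (right), in percent on the y axis, for each library on the x axis. Aldh1a3 takes 96.4% or more of the left bars in luminal libraries and at most 10.3% in basal ones, and Rarg takes 66.1% or more of the right bars in all 11.

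Per kb of length, the summed level of Aldh1a1, Aldh1a2, Aldh1a3 and Aldh1a7 was 8.11 to 18.4 in basal duct, 26.9 to 38.1 in basal TEB, 43.7 to 46.4 in luminal duct and 17.3 to 22.6 in luminal TEB, in CPM per kb. The luminal sum was therefore above the basal sum in ducts, and below it in TEBs, without overlap. The order in TEBs depended on Aldh1a7, which is not one of the 9 genes and measured 12.8 to 21.6 CPM per kb in basal TEB. Whether its product oxidises retinal was not examined here, so the sum is one of RNA of related genes. Without Aldh1a7 the TEB sums of the cell types overlapped. Basal TEB then held Aldh1a1 at 12.0 to 18.5 and Aldh1a3 at 1.09 to 3.39 CPM per kb, against 17.1 to 22.4 of Aldh1a3 in luminal TEB. Aldh1a3 made up 98.0% or more of the full sum in luminal duct and 96.4% to 99.3% in luminal TEB. In basal libraries Aldh1a1 made up 41.1% to 73.1% in ducts and 34.5% to 53.2% in TEBs, and Aldh1a7 18.3% to 48.6% and 43.7% to 56.6%. Aldh1a3 held 5.90% to 10.3% and 3.12% to 8.90%.

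Crabp2 (chr3:87948693-87953372, plus strand, protein coding), which carries retinoic acid to the receptors, showed no difference that stood out from the spread. It measured 12.6, 14.8 and 4.51 CPM in basal duct, 14.5, 3.56 and 10.7 CPM in basal TEB, 11.6 and 5.84 CPM in luminal duct, and 6.41, 6.57 and 4.80 CPM in luminal TEB. The ranges overlapped in all 4 comparisons, and replicates of a basal group differed more than the group means did. For basal TEB against basal duct the log2 fold change was -0.15 (FDR = 0.953, interval from -1.50 to 1.20), and for basal against luminal TEB 0.69 (FDR = 0.465, interval from -0.67 to 2.05), so differences within these bounds were not resolved at this spread.

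Rara (chr11:98927800-98974942, plus strand, protein coding), the gene of RARα, was higher in luminal cells. Its levels were 45.3 and 58.9 CPM in luminal duct, 38.8, 40.1 and 48.1 CPM in luminal TEB, 16.6, 19.4 and 21.0 CPM in basal duct, and 0, 8.72 and 6.16 CPM in basal TEB. All luminal libraries were above all basal ones, and all basal duct libraries above the basal TEB libraries. Basal TEB was lower than luminal TEB by a log2 fold change of -3.07 (SE 0.89, FDR = 0.0237). This call was lost in a fit of the TEB groups alone (FDR = 0.0670) and without basal TEB replicate 3 (FDR = 0.0652) or luminal TEB replicate 1 (FDR = 0.0547), 2 (FDR = 0.0527) or 3 (FDR = 0.0683), and it held in 14 of 19 alternatives.

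The value of 0 in basal TEB replicate 1 bears on each result for Rara. That library held 27989137 counts and none for Rara, and it was the one with 37.5% mitochondrial counts. Outside the mitochondria, 10444 genes had at least 200 counts in each of basal TEB replicates 2 and 3. Of these, 163 (1.56%), Rara among them, were at 0 in basal TEB replicate 1. Without this library the difference between basal and luminal TEB was -2.51 (FDR = 6.2e-05). The difference of basal TEB from basal duct, -1.91 (SE 0.85, FDR = 0.333) in all libraries, became -1.34 (FDR = 0.0408) without it and -1.34 (FDR = 0.0240) without it and luminal duct replicate 3. Between basal and luminal duct the value was -1.45 (SE 0.90, FDR = 0.273), and it passed without basal TEB replicate 1 (FDR = 0.00112), without the 2 libraries rich in mitochondrial counts (FDR = 0.00641), in limma voom (FDR = 0.0152) and in a fit of the duct groups alone (FDR = 0.0138).

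Rarb (chr14:16430839-17082331, minus strand, protein coding), the gene of RARβ, is known to be switched on by retinoic acid through an element in its own promoter, and was the receptor gene found mostly in basal cells. It measured 4.53, 6.37 and 3.41 CPM in basal duct, 8.83, 5.98 and 5.74 CPM in basal TEB, 0.751 and 0 CPM in luminal duct, and 0.538, 1.39 and 1.27 CPM in luminal TEB. Every basal library was above every luminal library, and the basal groups overlapped each other. The differences of 3.62 (SE 1.41, FDR = 0.0895) in ducts and 2.68 (SE 1.14, FDR = 0.112) in TEBs did not pass edgeR's quasi-likelihood test. Both passed in DESeq2 (FDR = 0.00253 and 0.00995) and in limma voom (FDR = 0.0132 and 0.0332). All 33 luminal duct counts of Rarb were in replicate 1, and without that library the luminal duct group is at 0 and the fit calls it against basal duct (FDR = 0.00412) and luminal TEB (FDR = 0.0330). The difference in TEBs passed without either luminal duct library (FDR = 0.0179 without replicate 1 and 0.0153 without replicate 3) and without the 2 libraries of high mitochondrial share (FDR = 0.0155).

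Retinoic acid response elements are pairs of a short motif, and the DR5 element, a direct repeat with 5 bases between its copies, is the one known from Rarb. In windows from 250 bases before to 50 bases after each RefSeq gene start (GRCm38.p6), with both strands searched, a DR5 match was found in 32 of 32851 windows (0.0974%), a DR1 match in 0.222% and a DR2 match in 0.268%. Of the 9 genes, 7 had windows (15 in all), with 1 DR5 match, in Rarb, and 0 of DR1 or DR2. Among 43 other genes of the pathway, 32 had windows (43 in all), with 1 DR5 match in Cyp26a1 and 1 DR1 match in Bco1. The following promoter sequences, around the matches of Rarb (chr14:16575477-16575569, minus strand) and Cyp26a1 (chr19:37697736-37697807, plus strand), are shown because these genes hold the same kind of element and were counted at different levels. The capitals mark the match, which lies 53 to 37 bases before the start of Rarb, and 32 to 16 bases before that of Cyp26a1 on the opposite strand.
Rarb: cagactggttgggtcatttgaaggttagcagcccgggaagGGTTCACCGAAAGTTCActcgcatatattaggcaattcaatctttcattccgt
Cyp26a1: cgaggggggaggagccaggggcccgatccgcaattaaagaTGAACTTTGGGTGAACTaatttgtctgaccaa

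Cyp26a1, which encodes an enzyme that degrades retinoic acid, had 3 counts in basal TEB, 5 in luminal TEB and 0 in the duct libraries, and was not tested, whereas Rarb had 602 counts in basal duct and 642 in basal TEB. A match of letters does not show that a receptor binds there.

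Rarg (chr15:102234938-102257522, minus strand, protein coding), the gene of RARγ, was the most abundant of Rara, Rarb and Rarg in each library. It stood at 65.4, 64.8 and 74.5 CPM in basal duct, 54.6, 58.4 and 46.0 CPM in basal TEB, 73.6 and 89.2 CPM in luminal duct, and 92.5, 96.1 and 89.0 CPM in luminal TEB. The basal TEB libraries were the lowest of all and the luminal duct range overlapped both basal duct and luminal TEB. Basal TEB was lower than luminal TEB by a log2 fold change of -0.80 (SE 0.16, FDR = 0.00294), a call kept in 19 of 19 alternatives. The difference of basal TEB from basal duct was -0.36 (SE 0.16, FDR = 0.330), and the test of the difference between cell types gave -0.55 (SE 0.24, FDR = 0.319). Neither passed after adjustment.

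Per kb, Rarg made up 74.3% to 78.6% of the 3 receptor genes in basal duct, 80.1% to 84.2% in basal TEB, 66.1% to 67.1% in luminal duct and 69.6% to 75.0% in luminal TEB. The share of Rara was 15.5% to 17.3% in basal duct, 0% to 9.39% in basal TEB, 32.1% to 33.9% in luminal duct and 24.2% to 29.2% in luminal TEB. Rarb held 4.16% to 8.44% in basal duct and 9.59% to 15.8% in basal TEB, against at most 1.25% in luminal libraries. In all 3 basal TEB libraries Rarb thus held a larger share than Rara, by as little as 9.59% against 9.39% in replicate 2, and in the other 8 libraries a smaller one.

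Cyp26b1 (chr6:84571414-84593908, minus strand, protein coding), the CYP26 enzyme gene with the most counts here, had its lowest values in TEBs. It measured 3.75, 11.4 and 2.80 CPM in basal duct, 1.62, 2.11 and 2.16 CPM in basal TEB, 2.09 and 4.40 CPM in luminal duct, and 0.112, 1.24 and 0.886 CPM in luminal TEB. The TEB libraries lay below the duct libraries in each cell type, and basal and luminal duct overlapped. The log2 fold changes from ducts to TEBs were -1.61 (SE 1.01, FDR = 0.500) in basal and -2.12 (SE 1.10, FDR = 0.356) in luminal cells and did not pass the test. Basal duct replicate 2, with the highest Cyp26b1, also had the highest sums of fibroblast (840 CPM), adipocyte (184.9 CPM, 5 of 5 matched, with Adipoq and Plin1 at 0) and endothelial markers (191.2 CPM, 5 of 5 matched). Their part in its level was not tested. Without that library the difference in basal cells was -0.74 (FDR = 0.888), and without luminal duct replicate 3 that in luminal cells was -1.48 (FDR = 0.750).

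**Figure D3:**
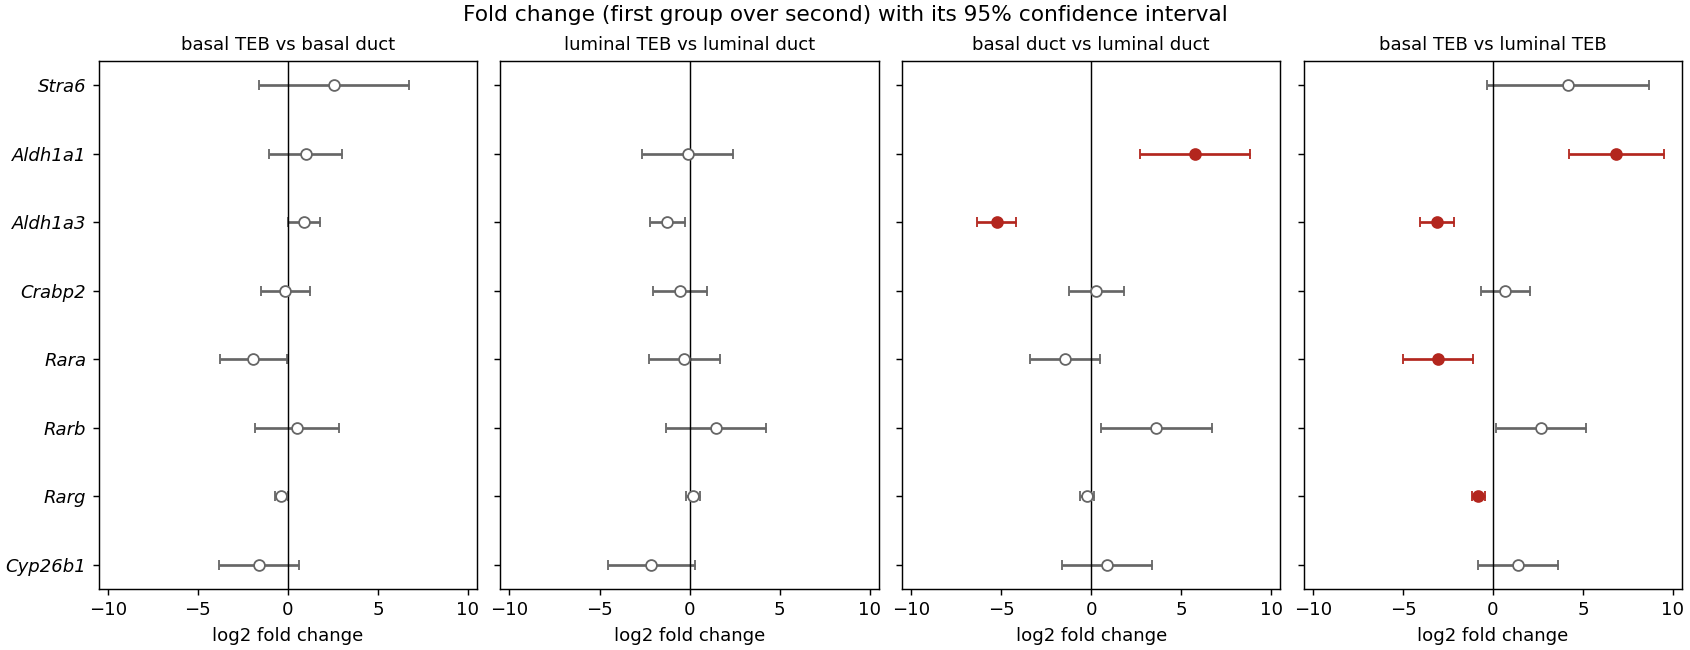
Log2 fold changes of the 8 genes tested (x axis) in 4 comparisons, the first group named in each panel title over the second, with intervals at 95% as bars and filled red points for genes with an FDR below 0.05. Stra6 is left out where luminal duct, at 0 in both libraries, is one of the groups. The filled points are Aldh1a1 and Aldh1a3 between basal and luminal duct, and these with Rara and Rarg between basal and luminal TEB.

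The order of the genes per kb differed between groups. In basal duct Rarg came first with a mean of 21.3 CPM per kb, followed by Crabp2 (11.8), Aldh1a1 (7.36) and Rara (4.60), where only Crabp2 and Aldh1a1 overlapped as neighbours. In basal TEB the leading genes were Rarg (16.5), Aldh1a1 (14.5) and Crabp2 (10.7), and neighbours among these overlapped. In luminal duct Aldh1a3 (44.6) was first, above Rarg (25.4), Rara (12.6) and Crabp2 (9.67), of which Rara and Crabp2 overlapped. In luminal TEB Rarg (28.8) exceeded Aldh1a3 (19.0), Rara (10.2) and Crabp2 (6.59), with no overlap between neighbours. Aldh1a3 stood at the 90.9th percentile of tested genes per kb in luminal duct and at the 77.6th in luminal TEB, and Aldh1a1 at the 56.5th in basal duct and the 72.9th in basal TEB.

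Over the 11 libraries, the log2 CPM of Aldh1a1 followed that of Rarb (Pearson r = 0.84) and ran against Aldh1a3 (r = -0.88) and Rarg (r = -0.86). These are descriptions, since the libraries of a cell type share its whole profile. Among 7709 named genes of at least moderate level (7708 for Aldh1a3 and Rarg, themselves among them), the pair most like Aldh1a1 was D16Ertd472e (r = 0.98) and Cdr2 (r = 0.98), and that of Aldh1a3 was Sgsm2 (r = 0.99) and Fkbp8 (r = 0.99). The genes most like Rara were Avl9 (r = 0.99) and Zhx1 (r = 0.99), those most like Rarb Phtf2 (r = 0.98) and Larp1b (r = 0.97), and those most like Rarg Atp2c2 (r = 0.97) and Cdc42ep1 (r = 0.97). The likeness was lower for Stra6 with Brd1 (r = 0.93) and Fam98b (r = 0.91), for Cyp26b1 with Zmym5 (r = 0.90) and Rab34 (r = 0.88), and for Crabp2 with Eloc (r = 0.87) and Entr1 (r = 0.85).

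Other genes of the retinoic acid pathway, 43 in 8 lists by role, were examined in the same fit, and 34 passed the filter. Between basal and luminal duct 10 of the 34 were called (29.4%), 6 higher and 4 lower in basal cells, and between basal and luminal TEB 14 (41.2%), 7 higher and 7 lower, against 22.3% and 25.1% of all genes. Their median log2 fold change was 0.18 in ducts (0.14 with genes at 0 in a whole group set to the bound of 3 counts per library) and -0.04 in TEBs. Between TEBs and ducts edgeR called 0 of 34 in basal cells, with 3 at an unadjusted p below 0.05, while DESeq2 and limma voom called 2 each. In luminal cells edgeR called 0 of 34, with 3 at an unadjusted p below 0.05, DESeq2 called 1 and limma voom 0. In the test of the difference between cell types edgeR called 0, with 5 at an unadjusted p below 0.05, DESeq2 called 1 and limma voom 0. For these tests in turn (basal, luminal, difference), edgeR gave an unadjusted p below 0.05 to 2511, 2882 and 2559 of all 17370 genes. DESeq2 called 874, 1277 and 712 of all genes, and limma voom 601, 351 and 95.

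**Figure D4:**
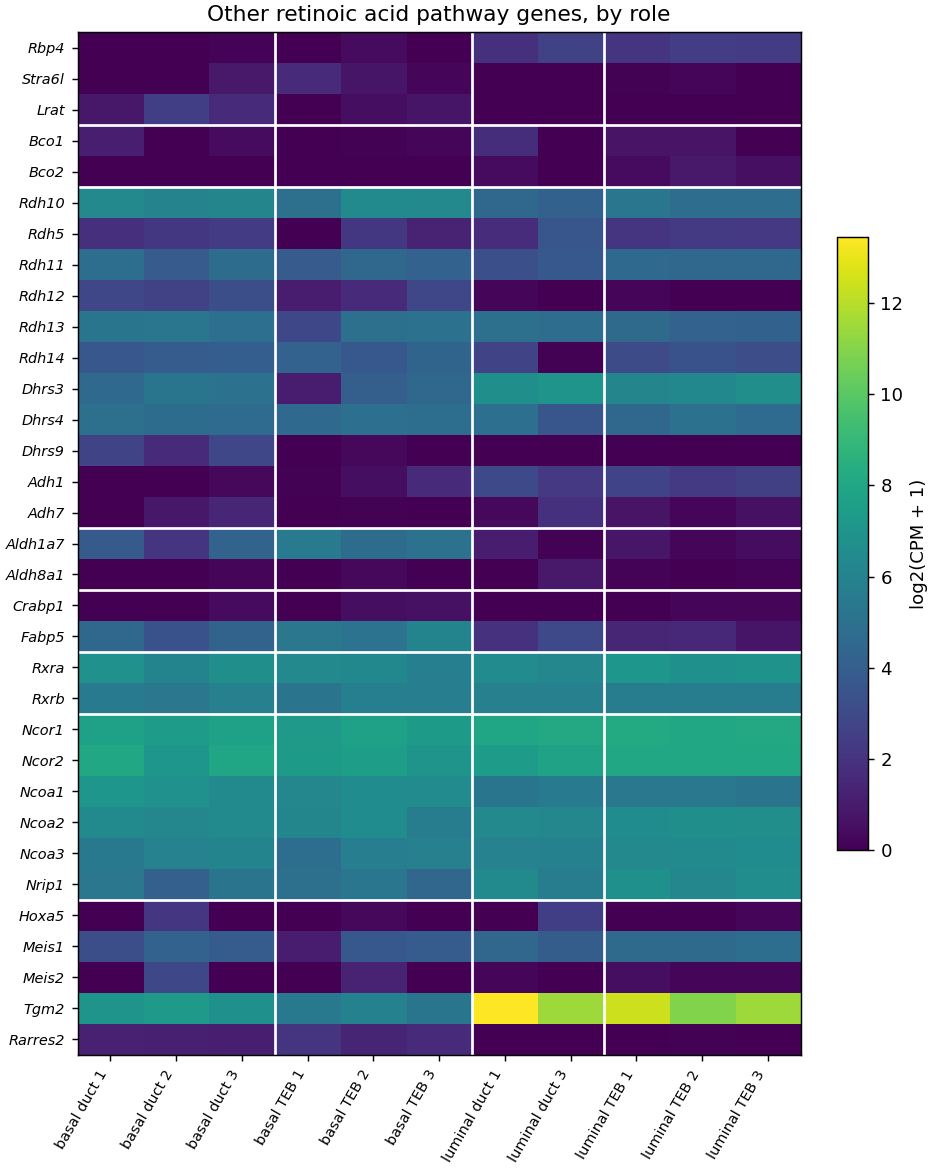
Levels of tested genes from the pathway lists, as log2(CPM + 1) by colour, with genes on the y axis grouped by role and libraries on the x axis grouped by cell type and structure. Fabp5 is brighter in the 6 basal columns and Tgm2 in the 5 luminal columns, and the RXR partners and coregulators differ less between columns.

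Rdh10, which oxidises retinol to retinal, was higher in basal cells by 1.85 (SE 0.39, FDR = 0.00460) in ducts, with 64.6 to 80.1 CPM in basal and 17.3 to 22.4 CPM in luminal libraries. Of the 11 oxidoreductases tested, 3 were called in each comparison of cell types, 2 higher and 1 lower in basal cells (27.3%, against 22.3% of all genes in ducts and 25.1% in TEBs).

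Fabp5, a fatty acid binding protein that also binds retinoic acid, was at 33.4 to 67.3 CPM in basal TEB and 0.674 to 1.96 CPM in luminal TEB, a difference of 4.99 (SE 0.59, FDR = 5.8e-05). In ducts it differed by 1.82 (SE 0.59, FDR = 0.0467). Fabp5 was the 1 gene called of the 2 tested among other binding and degrading proteins, in ducts and in TEBs. Likewise Aldh1a7 was the 1 called of the 2 other aldehyde dehydrogenase genes tested. Of all genes, 22.3% were called in ducts and 25.1% in TEBs, so 1 call of 2 tells little about a list. Of the RXR partners, 2 of 3 were tested. They were counted at similar levels, with Rxra and Rxrb each at 36.1% to 63.9% of the family per kb in every library and Rxrg at no more than 0.198%. In TEBs 1 of them, Rxra, was lower in basal cells (log2 fold change -0.76, SE 0.22, FDR = 0.0228), and 0 were called in ducts.

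Of the 6 coregulators, all tested, 2 were called in ducts, 1 in each direction, and 5 in TEBs, 1 higher and 4 lower in basal cells, where 22.3% of all genes were called in ducts (12.6% higher and 9.71% lower) and 25.1% in TEBs (13.2% higher and 11.8% lower). The one that was higher in both was Ncoa1, a coactivator of nuclear receptors, by 1.45 (SE 0.22, FDR = 0.000517) in ducts and 1.13 (SE 0.19, FDR = 0.000861) in TEBs. Response genes, known to be raised by retinoic acid in other settings, did not move one way. Of 10, 5 were tested, 1 was called in ducts and 2 in TEBs, 1 in each direction. Tgm2, a transglutaminase long known to be induced by retinoic acid, ranged from 2876 to 11196 CPM in luminal duct and from 1905 to 5483 CPM in luminal TEB, against 106.3 to 155.3 CPM in basal duct and 36.2 to 59.9 CPM in basal TEB. Basal cells were lower by a log2 fold change of -5.77 (SE 0.60, FDR = 3.3e-05) in ducts and -6.22 (SE 0.60, FDR = 1.2e-05) in TEBs. Of the 2 genes of carotenoid cleavage 0 were called by edgeR in either comparison, with 0 at an unadjusted p below 0.05 in ducts and 1 in TEBs. Of all 17370 genes, 6100 in ducts and 6281 in TEBs had such a p in that test.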

How the data were processed

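RNA-seq libraries were prepared by the authors with the TruSeq RNA v2 protocol, which does not mark strand, and 80 bp paired-end reads were aligned to mm10 and counted by Entrez gene with Rsubread and its inbuilt RefSeq annotation (versions not given in the sources used here). The authors left out 1 luminal duct sample that had too few cells. The deposited values are whole counts, not normalized, and 25275 of 27179 identifiers (93.0%) had a symbol. Analysis used R 4.3.3, edgeR 4.0.16 (filterByExpr with a minimum count of 10 and a minimum total of 15, TMM, quasi-likelihood test in 1 model of 4 groups, Benjamini-Hochberg adjustment), limma 3.58.1 and DESeq2 1.42.0. The common biological coefficient of variation was 0.704. SEs were derived from each log2 fold change and the square root of its F. CPM values and limits of 3 counts cover counting error only. The test was tried on simulated counts with known changes.

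The 9 genes, the pathway lists and the marker lists were chosen with earlier results of these data known. Pathway genes named are at most 5 per comparison by the F statistic among those called, leaving out 1 gene that is not reported here and with Rxra, Cyp26a1 and Bco1 added after their values or sequences were seen. Genes named as most alike have a mean log2 CPM (prior count 2) of at least 4. Gene spans are from RefSeq (GRCm38.p6) and strands and exons from GENCODE M21. Of the marker lists not given beside a result, immune markers (6 of 6 matched) summed to between 5.40 and 77.4 CPM and erythroid (4 of 5) to between 0.252 and 31.3 CPM. Alternatives tried were other scalings, no filter, DESeq2, limma voom, only the groups compared, the replicate number as a block, and each library left out in turn.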

Additional observations from a re-analysis of the deposited data

How the results depend on the processing

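The calls of Aldh1a1 and Aldh1a3 between cell types and of Rarg in TEBs held in 19 of 19 alternatives, and that of Rara in TEBs in 14. Over 40 results of single genes and 750 alternative values, 701 kept direction and side of the threshold, 5 lost their call, 21 gained one and 23 turned direction. The luminal duct group rests on 2 libraries, and low counts limit Stra6, Aldh1a2, Rarb and Cyp26b1. Where libraries are left out of a group of 2, the lone sample is assumed to vary like the other groups. The causes of the changes were not tested.

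Between basal TEB and basal duct, 230 of all genes were called, 57 without composition scaling, 874 by DESeq2, 601 by limma voom and 59 (without basal TEB replicate 3) to 399 (without basal TEB replicate 2) with a library left out. Of the 8 genes 0 to 1 were called with a library left out (1 without basal TEB replicate 1), and of the 34 pathway genes 2 by DESeq2, 2 by limma voom and 1 in a fit of the groups compared alone. For luminal TEB against duct, 245 of all genes became 10 without composition scaling, 1277 by DESeq2, 603 with the groups alone and 37 (without luminal TEB replicate 3) to 1305 (without luminal duct replicate 1) with a library left out. Of the 8 genes 1 was then called by limma voom, 1 with the groups alone and 0 to 1 with a library left out, and of the pathway genes 1 by DESeq2 and 0 to 2 with a library left out, where 1 and 2 were without luminal duct replicate 1. For the difference between cell types, 77 became 15 without composition scaling, 141 without a filter, 712 by DESeq2 and 7 (without basal duct replicate 1) to 753 (without luminal duct replicate 1) with a library left out. DESeq2 called 1 of the 8 and 1 of the 34, and 0 to 3 of the 34 (3 without luminal duct replicate 1) were called with a library left out. No value exists for this test with only the groups compared. Between cell types in ducts limma voom called 4 of the 8 genes rather than 2, and 6 rather than 10 pathway genes were called without composition scaling and 6 (without basal duct replicate 1) to 13 with a library left out. In TEBs 8 (without luminal TEB replicate 3) to 15 rather than 14 were called with a library left out, and 9 without luminal TEB replicate 1.

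Without composition scaling the median of all genes moved from 0.04 to 0.42 in luminal TEB against duct and from 0.04 to -0.35 in basal against luminal TEB. Uncalled values in that fit without composition scaling turned to 0.19 (Aldh1a1) and 0.11 (Rara) in luminal cells. For the difference between cell types they turned to -0.23 (Crabp2) and -0.014 (Cyp26b1), and limma voom gave 1.75 for Stra6. With a library left out, Crabp2 ranged from -0.57 to 0.19 in basal and from -0.96 to 0.023 in luminal TEB against duct, and from -0.12 to 0.87 between cell types in ducts. Aldh1a1 ranged from -1.51 to 6.36 in luminal TEB against duct. For the difference between cell types the ranges were -3.19 to 0.070 (Stra6), -5.38 to 2.46 (Aldh1a1), -0.17 to 0.81 (Crabp2), -7.90 to 0.016 (Rarb) and -0.12 to 1.38 (Cyp26b1). Without luminal duct replicate 1 the luminal duct group is at 0 for Aldh1a1 and Rarb, as it always is for Stra6. Fitted values against a group at 0 give no fold, so these ranges are not bounds on a fold change for those genes.

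Leaving out the 2 libraries of highest mitochondrial share, chosen after seeing the data, gave 1 call among the 8 genes between basal TEB and duct, 372 of all genes in luminal TEB against duct and 198 for the difference between cell types. Crabp2 turned to -0.12 between cell types in ducts and Cyp26b1 to -0.010 for the difference.

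Whether the replicate numbers pair samples was not settled. Of 15 pairs with the same number, 4 had correlated deviations above 0.1 (range -0.068 to 0.163). Of 11 libraries, 7 correlated best with their own number, and no chance level was computed for this count. With the number as a block, 125 of all genes were called in luminal TEB against duct and 46 for the difference between cell types, the uncalled Aldh1a1 value in luminal cells turned to 0.15 and that of Stra6 for the difference to 0.70, and the counts called among the 8 genes stayed at 0, 0, 2, 4 and 0.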
